A study of Mus musculus with 18 samples.

Results

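The nuclear genes of respiratory complex I are described here across the accessible chromatin of mouse cortical neurons. The members are all protein-coding genes whose symbol starts with Nduf in RefSeq's gene table for GRCm38.p6 (mm10). They number 49 of 21774 nuclear protein-coding genes, and 5 pseudogenes with such symbols were left out. By symbol they form 11 genes of the Ndufs and Ndufv series, 30 of the Ndufa, Ndufb and Ndufc series, and 8 assembly factors (Ndufaf).

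Complex I oxidises NADH at the tip of an arm that reaches into the mitochondrial matrix, passes the electrons along iron-sulfur clusters to ubiquinone, and pumps protons through its membrane arm. Its catalytic core is conserved from bacteria and is encoded partly in the nucleus and partly in mitochondrial DNA. Accessory subunits surround that core, and assembly factors help to build the complex but are not part of it. Neurons depend on it for most of their ATP, and defects of its genes in people cause early brain diseases such as Leigh syndrome.

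ATAC-seq, which marks open DNA through insertions of the transposase Tn5, was run on primary neurons cultured from the cortex of CD1 mouse embryos at E14.5-15. The 18 samples fall into 4 groups, all given cytosine arabinoside (2 µM), which kills dividing cells, transduced with lentiviral short hairpin RNAs (shRNAs) on day 6 in culture and taken on day 11. The groups are shOpa1 with shAtf4 (5 samples), shControl with shAtf4 (3), shOpa1 with shScrambled (5) and shControl with shScrambled (5). Opa1 is the fusion GTPase of the inner mitochondrial membrane, whose loss is the mitochondrial stress of the study, and Atf4 drives the transcriptional arm of the integrated stress response. The file analysed is 1 consensus list of 211682 peaks (mm10) with no value for a sample or a group, so nothing here compares the knockdowns, no value has a replicate error, and the depth of each sample is unknown. As a check of the labelled cell type, 5 of 5 pan-neuronal marker genes had a peak within 1000 bp of a gene end, as did 2 of 4 astrocyte and 1 of 4 microglia markers, against 70.4% of all nuclear protein-coding genes. With so common a feature, these counts say little of cell type.

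An accessible site at an end was present at all but a pair of the Nduf genes. A peak with any base within 1000 bp of either outermost end of the gene, called an end peak below, was present at 47 of 49 Nduf genes, against 70.4% of all nuclear protein-coding genes. All 11 Ndufs and Ndufv genes, 28 of 30 Ndufa, Ndufb and Ndufc genes and all 8 Ndufaf genes had one. The exceptions were Ndufb4b and Ndufb4c, which are named after Ndufb4, a subunit of the membrane arm. The members were chosen with earlier results of these data known, so these counts are a description and were given no test. Leaving out every peak within 1000 bp of another protein-coding gene's end lowered the count to 25 of 49 Nduf genes (51.0%), against 57.5% of all protein-coding genes.

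Transcription starts could be placed for 42 members at the gene's outermost end, with the strand from RefSeq promoter windows of GRCm38.p6. Each window also has its own listed start, used below for sequences and motifs, which can differ from the outermost start, as at Ndufs7. The other 7 members had no window. The outermost start lay inside a peak in 41 of the 42 genes, against 55.9% of all protein-coding genes with a window, and Ndufb4b was the exception. At the finish of transcription the picture differed. A peak lay within 1000 bp of the finish in 13 of 42 genes, against 25.0% of all genes. The finish itself was inside a peak at Ndufa13 alone, against 5.4% of all genes. That peak was 696 bp wide and also lay within 1000 bp of an end of Yjefn3. Around the start, the covering peak reached a median of 528 bp upstream (range 117 to 1169 bp) and 634 bp downstream (range 109 to 1230 bp) in the 41 Nduf genes, against medians of 429 and 668 bp over all such genes. It reached farther upstream than downstream in 18 of the 41 Nduf genes (43.9%), against 29.8% of all such genes. The covering peak also held a protein-coding start on the opposite strand in 39.0% of the 41, against 15.9% of all such genes. The part of such shared peaks in the upstream reach was not tested.

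**Figure D1:**
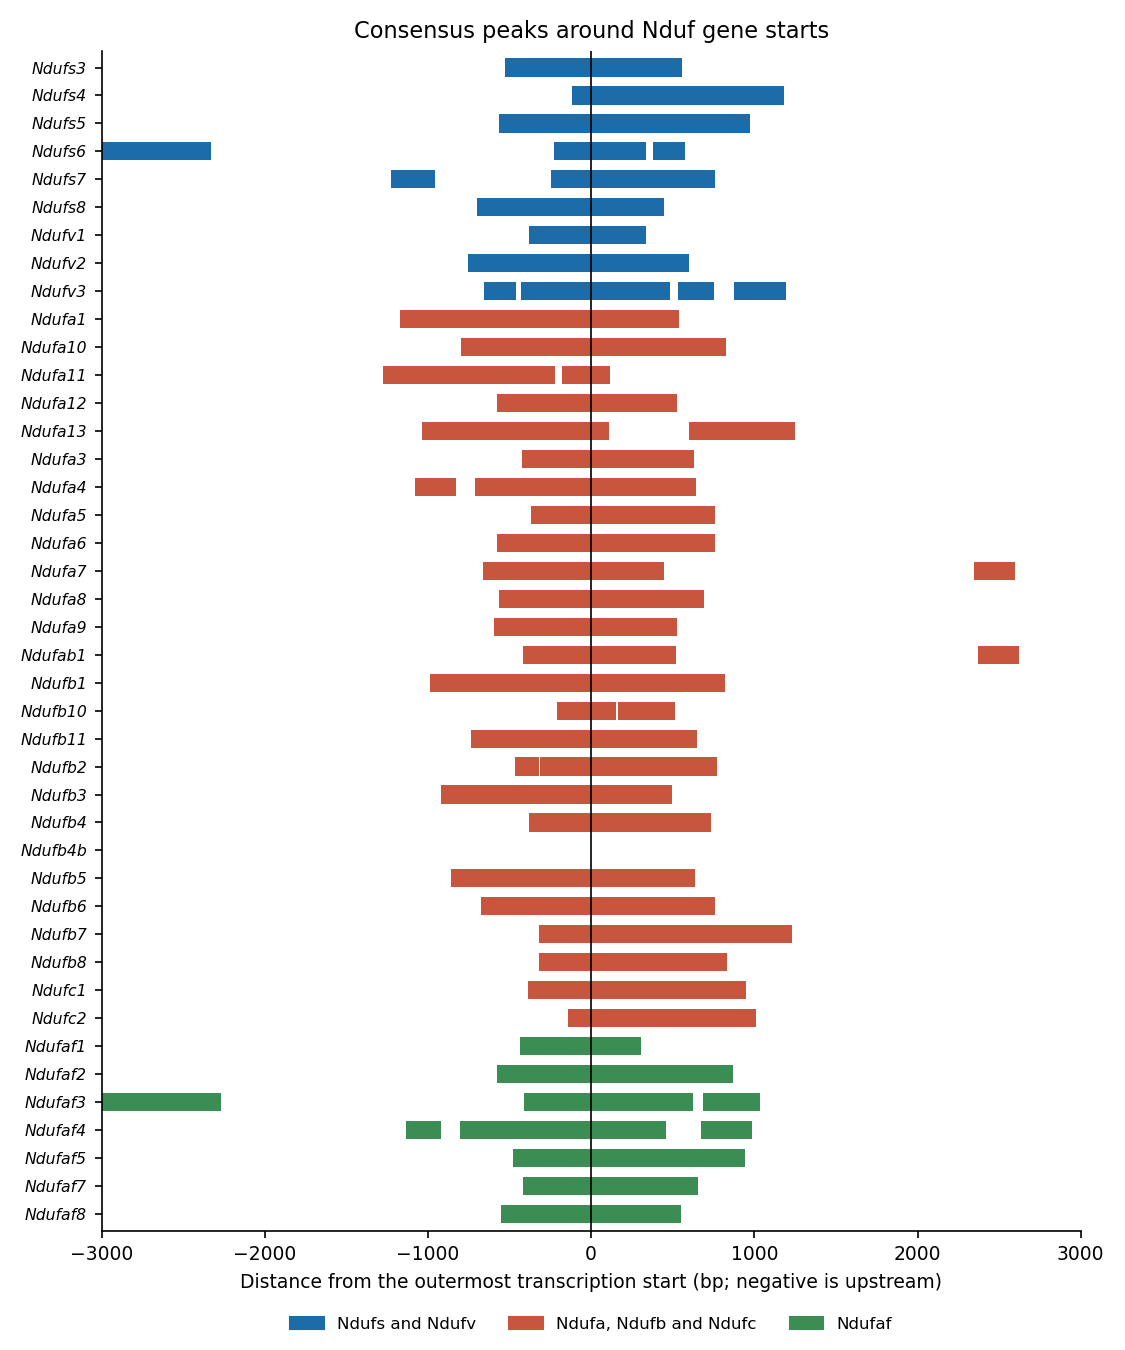
Consensus peaks within 3 kb of the outermost transcription start of the 42 Nduf genes with a known strand, 1 gene per line, with distance in bp on the x axis and colours for the 3 symbol classes. The start (vertical line) lies inside a bar in 41 lines, and the line of Ndufb4b is empty.

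The Ndufs and Ndufv series holds the nuclear genes of the catalytic core. Ndufv1 carries the NADH site and flavin, Ndufv2 and Ndufs1 carry iron-sulfur clusters of the same arm, Ndufs7 helps to form the ubiquinone pocket, and Ndufs3 and Ndufs8 lie near it. Ndufs4, Ndufs5, Ndufs6 and Ndufv3 share the symbols but are accessory subunits. The widest end peak per gene had a median of 1082 bp in this series, against a median of 1133 bp over all protein-coding genes with an end peak (quartiles 842 and 1398 bp).

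Ndufv2 had the widest end peak of all members, 1887 bp (chr17:66075973-66077859), but it lay beyond the finish of the gene and within 1000 bp of an end of Ankrd12. The start of Ndufv2 had a peak of its own of 1354 bp. Next came Ndufs5 with 1537 bp (chr4:123717214-123718750) and Ndufs4 with 1301 bp (chr13:114386911-114388211), both over the start. Loss of Ndufs4 in mice is a widely used model of Leigh syndrome, and its peak reached 1183 bp into the gene but only 117 bp upstream. Ndufs1 had 1297 bp, Ndufs8 1144 bp, Ndufs3 1082 bp and Ndufs7 1006 bp.

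Narrower sites stood at Ndufv3 (915 bp), Ndufv1 (721 bp) and Ndufs6 (563 bp). All 3 covered the start. With peaks at most 50 bp apart joined, Ndufv3 had 1409 bp and Ndufs6 799 bp, wider than Ndufv1, which did not change.

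The Ndufa, Ndufb and Ndufc series is the accessory shell. Its widest end peaks had a median of 1149.5 bp over the 28 genes that had one, with a range of 360 to 1805 bp. Ndufb1, a small membrane-arm subunit, led with 1805 bp (chr12:101974919-101976723), followed by Ndufa1, an X-linked membrane subunit, with 1707 bp (chrX:37190701-37192407), and Ndufa10 with 1624 bp (chr1:92472998-92474621). Ndufb7 had 1550 bp and Ndufb5 1492 bp. Of the 28 genes, 24 had an end peak of at least 1000 bp.

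In descending order Ndufb6, Ndufb3, Ndufb11, Ndufa4, Ndufa6, Ndufc1, Ndufa8 and Ndufb9 lay between 1429 and 1199 bp. Ndufb8, Ndufa13 (also known as GRIM-19), Ndufa5, Ndufa9, Ndufa2, Ndufb4, Ndufa7, Ndufa12, Ndufb2, Ndufa11 and Ndufa3 lay between 1154 and 1052 bp. At Ndufa11 the widest peak ended upstream of the start, and the start lay in a second peak of 292 bp. With peaks at most 50 bp apart joined, these made a single peak of 1389 bp. Ndufab1, the mitochondrial acyl carrier protein that also serves fatty acid synthesis, had 938 bp and Ndufc2 had 930 bp. The narrowest were Ndufa4l2, a paralogue of Ndufa4 known to be induced by hypoxia, with 581 bp, and Ndufb10, another membrane-arm subunit, with 360 bp (chr17:24724272-24724631). Both values rest on split peaks: with peaks at most 50 bp apart joined, Ndufa4l2 had 946 bp and Ndufb10 724 bp. Ndufa4 itself, now placed with complex IV, had 1351 bp.

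Both members with no end peak are short. Ndufb4b spans 471 bp on chromosome 19 and Ndufb4c 485 bp on chromosome 15, against 6767 bp for Ndufb4. The nearest peak lay 7535 bp from Ndufb4b and 3864 bp from Ndufb4c. Ndufb4 had 1117 bp over its start (chr16:37653636-37654752). The treatment of reads matching several copies is not stated in the labels, and its part in these absences was not tested.

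The assembly factors are needed only while the complex is built. Their widest end peaks had a median of 1106 bp, with a range of 742 to 1443 bp. Ndufaf2, which resembles Ndufa12 and holds its place during assembly, had 1443 bp (chr13:108157785-108159227). Ndufaf5, which hydroxylates Ndufs7, had 1424 bp (chr2:140170102-140171525), and Ndufaf4, which works with Ndufaf3 on the ubiquinone module, had 1263 bp (chr4:24897279-24898541). Ndufaf8, the partner of Ndufaf5, had 1107 bp, Ndufaf6 1105 bp, Ndufaf7, a methyltransferase, 1072 bp, and Ndufaf3 1041 bp. Ndufaf1, a chaperone of the membrane arm, had the narrowest at 742 bp (chr2:119662533-119663274).

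Across all 3 series, 23 of the 47 widest end peaks lay above the median of all protein-coding genes with an end peak, 11 above the upper quartile and 6 below the lower quartile. The median width was 1126 bp in Nduf genes, against 1133 bp over all genes, and the middle 50% of Nduf genes lay between 1052 and 1370 bp.

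**Figure D2:**
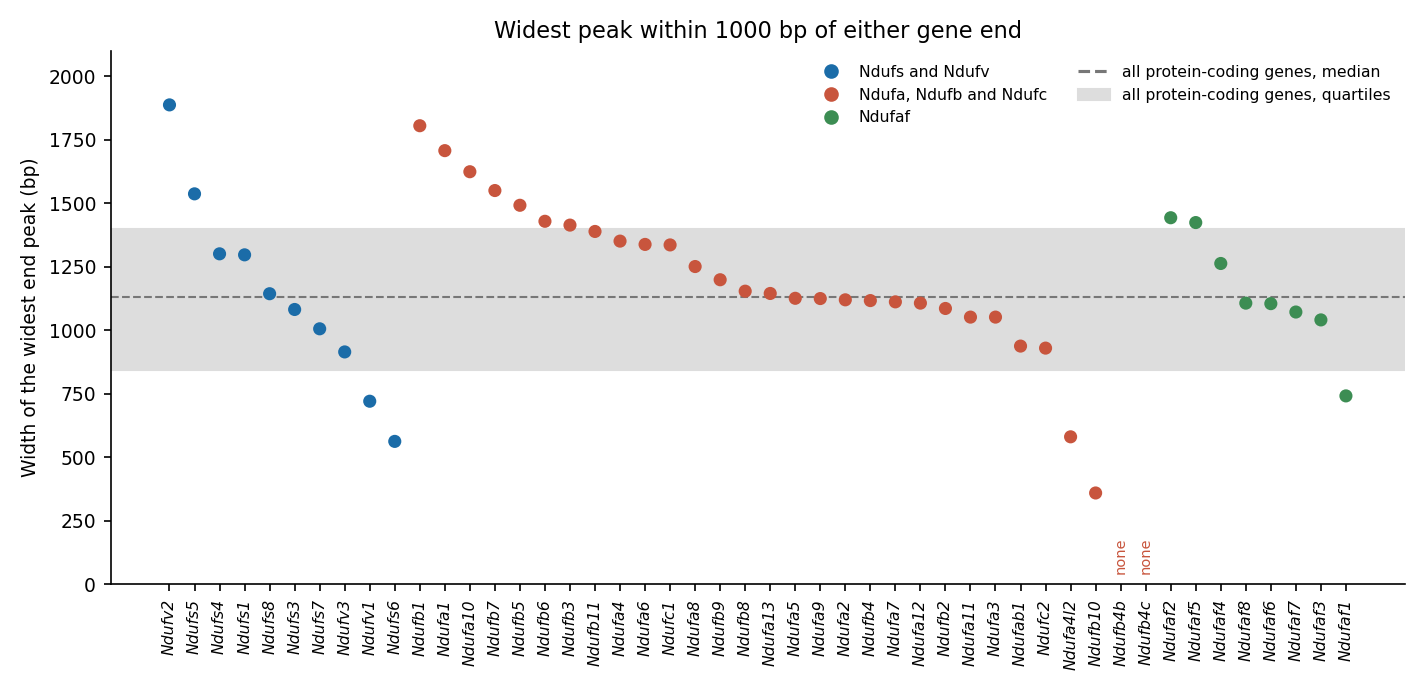
Width in bp of the widest peak within 1000 bp of either gene end for 48 Nduf genes, grouped by symbol class, with the median (dashed, 1133 bp) and quartiles (band, 842 to 1398 bp) of all protein-coding genes with an end peak. The points run from 360 bp at Ndufb10 to 1887 bp at Ndufv2, and Ndufb4b and Ndufb4c have no peak to plot.

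The bases just before the start are shown for the member of each class with the widest and with the narrowest end peak as deposited, among those with a promoter window, and for Ndufb4b, which has a window but no end peak. Each line gives the 150 bases that end 1 base before the listed start (RefSeq, GRCm38.p6), on the gene's own strand, with whole matches to the motifs named further on in capitals. For the first 6 genes all 150 bases lay inside a peak (at Ndufv2 the peak of 1354 bp over the start, not the wider peak past the finish), and for Ndufb4b 0 did.

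Ndufv2 (core series, widest, chr17:66101560-66101709, minus strand): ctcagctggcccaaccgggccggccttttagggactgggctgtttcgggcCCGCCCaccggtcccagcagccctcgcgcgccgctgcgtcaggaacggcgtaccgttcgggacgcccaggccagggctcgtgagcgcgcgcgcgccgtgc
Ndufs6 (core series, narrowest, chr13:73328483-73328632, minus strand): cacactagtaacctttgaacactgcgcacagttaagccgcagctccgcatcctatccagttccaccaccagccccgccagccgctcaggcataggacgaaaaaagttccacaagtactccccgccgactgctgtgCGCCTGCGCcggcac
Ndufb1 (accessory, widest, chr12:101975739-101975888, minus strand): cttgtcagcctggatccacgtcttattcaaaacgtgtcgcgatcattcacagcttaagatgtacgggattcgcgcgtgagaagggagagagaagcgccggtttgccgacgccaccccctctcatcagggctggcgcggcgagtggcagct
Ndufb10 (accessory, narrowest, chr17:24724424-24724573, minus strand): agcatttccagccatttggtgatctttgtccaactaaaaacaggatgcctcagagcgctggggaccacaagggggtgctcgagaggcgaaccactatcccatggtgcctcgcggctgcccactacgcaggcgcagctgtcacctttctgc
Ndufaf2 (assembly factor, widest, chr13:108158626-108158775, minus strand): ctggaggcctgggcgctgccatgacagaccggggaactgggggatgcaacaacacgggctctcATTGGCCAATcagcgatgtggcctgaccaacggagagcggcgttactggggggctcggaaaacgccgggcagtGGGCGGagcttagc
Ndufaf1 (assembly factor, narrowest, chr2:119662835-119662984, minus strand): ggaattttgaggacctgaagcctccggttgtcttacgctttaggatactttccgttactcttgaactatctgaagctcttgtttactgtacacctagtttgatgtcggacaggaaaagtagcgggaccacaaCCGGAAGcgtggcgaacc
Ndufb4b (accessory, no end peak, chr19:25032958-25033107, plus strand): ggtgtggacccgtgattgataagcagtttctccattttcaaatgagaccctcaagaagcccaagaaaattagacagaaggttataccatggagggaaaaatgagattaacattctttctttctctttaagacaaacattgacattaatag

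The whole window of 300 bases at Ndufb4b had 5 CpG pairs and a GC content of 41.3%, the lowest of the Nduf windows. Windows run from 250 bases before the listed start to 50 after it. The ratio of observed to expected CpG was 0.399 for Ndufb4b, against a range of 0.482 to 1.14 in the other Nduf windows. Over the 44 windows of the 42 Nduf genes the median ratio was 0.828, against 0.567 over 21263 windows of all protein-coding genes. A ratio of at least 0.6 was found in 37 Nduf windows (84.1%), against 47.7% of all windows. Medians were 0.871 in Ndufs and Ndufv, 0.734 in Ndufa, Ndufb and Ndufc and 0.881 in Ndufaf windows. The rank correlation (Spearman) between this ratio and the width of the widest end peak was 0.11 across 41 Nduf genes and 0.35 across 12185 protein-coding genes, given as a description, since base composition can enter both measures.

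Motif letters were then searched on both strands of the same windows. Matches can overlap each other, and a match describes letters, not a bound site. NRF1, a regulator of nuclear genes for mitochondrial proteins, was searched as GCGCANGCG. It matched 11 of 44 Nduf windows (25.0%) from 10 genes, against 8.58% of all windows. The genes were Ndufs5, Ndufs6, Ndufa5, Ndufa6, Ndufa8, Ndufa11, Ndufb4, Ndufb10, Ndufaf4 and Ndufaf5. Among them, the start peaks of Ndufs6, Ndufa8, Ndufa11 and Ndufaf5 also held the start of a gene on the opposite strand, named further on. YY1, another factor with many targets among such genes, was searched as AAGATGGCG and matched 6 Nduf windows (13.6%), against 1.83% of all windows. The NRF1 and YY1 letters both contain CpG, and Nduf windows had a median of 20.5 CpG pairs, against 13 over all windows. No share over windows of like CpG content was computed.

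All 6 YY1 matches lay after the start and read forward on the gene's strand. Over all windows with a YY1 match, 59.5% had one after the start and 74.6% had one that read forward. The matches are shown with up to 10 bases on either side, with the motif in capitals and positions counted from 1 at the listed start.

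Ndufaf8 (chromosome 11, positions 11 to 19): ggcagggcccAAGATGGCGgcgccctcga
Ndufc1 (chromosome 3, positions 23 to 31): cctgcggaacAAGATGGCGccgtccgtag
Ndufs7 (chromosome 10, positions 25 to 33): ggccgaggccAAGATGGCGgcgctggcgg
Ndufa9 (chromosome 6, positions 30 to 38): attgtgggagAAGATGGCGgccgccgtcc
Ndufs6 (chromosome 13, positions 34 to 42): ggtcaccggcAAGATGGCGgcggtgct
Ndufs4 (chromosome 13, positions 36 to 44): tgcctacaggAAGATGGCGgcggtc

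The YY1 letters contain ATG, the letters of a start codon, and whether translation begins there was not examined. An NRF1 match lay after the start in 2 of the 11 Nduf windows (18.2%), against 17.5% of all windows with a match. Ndufb4 had 3, the most of any member, and they are shown in the same way, with negative positions upstream of the start.

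Ndufb4 (chromosome 16, positions -191 to -183): gagaagcagtGCGCACGCGcagaatacgc
Ndufb4 (chromosome 16, positions -79 to -71): ccttgtgcgcGCGCAGGCGcacttcctga
Ndufb4 (chromosome 16, positions -22 to -14): cctcatatccGCGCAGGCGcagatgtgcg

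The ETS letters CCGGAAG matched 6 Nduf windows (13.6%, against 11.6% of all windows), among them those of Ndufs3, Ndufs8 and Ndufaf1. The GC box GGGCGG matched 22 (50.0%, against 46.2%), the CCAAT box CCAAT 14 (31.8%, against 38.2%) and the TATA box TATAAA 5 (11.4%, against 12.6%). The cyclic AMP response element TGACGTCA matched 3 windows (6.82%, against 2.23%), at Ndufa10, Ndufa11 and Ndufb2, and the letters AAGGTCA of the oestrogen-related receptors matched 3 (6.82%, against 4.08%), at Ndufs5, Ndufb2 and Ndufb4. The ATF4 response element, searched as TGATGNAAN, matched 0 Nduf windows, against 3.58% of all windows. That says only that these letters are not in the 300 bases searched.

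**Figure D3:**
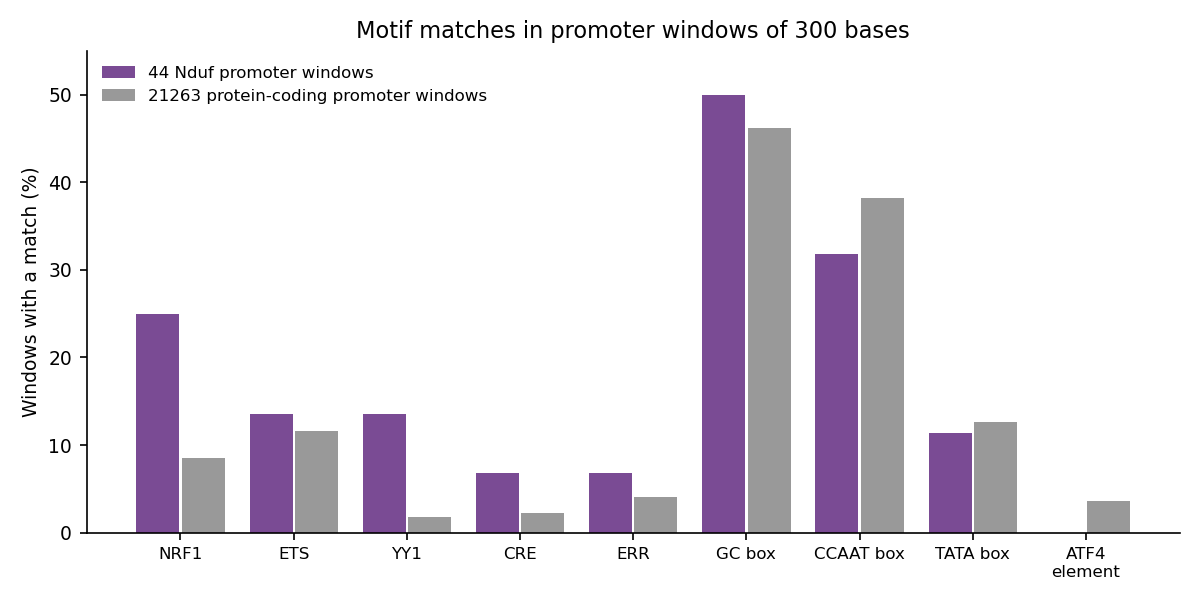
Share of promoter windows of 300 bases with at least 1 match to each motif on either strand, in per cent, for 44 Nduf windows (left bars) and 21263 windows of all protein-coding genes (right bars). NRF1 stands at 25.0% against 8.58% and YY1 at 13.6% against 1.83%, and the ATF4 response element is at 0 in the Nduf windows.

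Many Nduf genes shared their accessible site with a neighbour. The widest end peak lay within 1000 bp of an end of another protein-coding gene in 26 of the 47 Nduf genes with one (55.3%), against 24.8% of all protein-coding genes with an end peak. The counts were 6 of 11 in Ndufs and Ndufv, 15 of 28 in Ndufa, Ndufb and Ndufc and 5 of 8 in Ndufaf. Accessibility at such a site cannot be assigned to 1 gene.

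Most of these were head-to-head pairs. In 16 of the 41 Nduf genes whose start lay inside a peak, that peak also held the start of a protein-coding gene on the opposite strand, against 15.9% of all such genes. In 14 of the 16 the genes ran away from each other, and at Ndufa1 and Ndufb11 the genes overlapped their partners. The starts lay 10 to 302 bp apart, with a median of 56.5 bp. Ndufa7 and Rps28, a ribosomal protein gene, were the closest at 10 bp, and Ndufb5 and Mrpl47, a mitochondrial ribosomal protein gene, the farthest at 302 bp. Ndufs6 stood 21 bp from Mrpl36, another mitochondrial ribosomal protein gene, and Ndufs3 19 bp from Kbtbd4.

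The remaining pairs were Ndufv3 with Wdr4, a subunit of a tRNA methyltransferase, Ndufa1 with Rnf113a1, Ndufa4 with Phf14, Ndufa8 with Morn5, Ndufa11 with Vmac, Ndufb1 with Cpsf2, a subunit of the mRNA 3′ cleavage complex, Ndufb3 with Fam126b, Ndufb11 with Rbm10, Ndufaf2 with Ercc8, a DNA repair gene of Cockayne syndrome, Ndufaf3 with Dalrd3, Ndufaf5 with Esf1 and Ndufaf8 with Tepsin. Shared start peaks had a median width of 1301 bp, against 1126 bp for the start peaks of the other 25 Nduf genes. Over all protein-coding genes the same medians were 1250 and 1143 bp.

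In the other 10 genes the neighbour's end was near, but no opposite start was found in the same start peak, or the member's own strand was not known (Ndufs1, Ndufa2, Ndufa4l2 and Ndufb9). Opposite starts were searched only among protein-coding genes with a promoter window, here and in all such counts. A neighbour without a window could not be found. The genes, with the neighbour in brackets, were Ndufs1 (Eef1b2), Ndufs8 (Aldh3b1), Ndufv2 (Ankrd12), Ndufa2 (Ik), Ndufa3 (Oscar), Ndufa4l2 (Stac3), Ndufa5 (Asb15), Ndufa13 (Tssk6), Ndufb9 (Tatdn1) and Ndufaf7 (Cebpz).

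**Figure D4:**
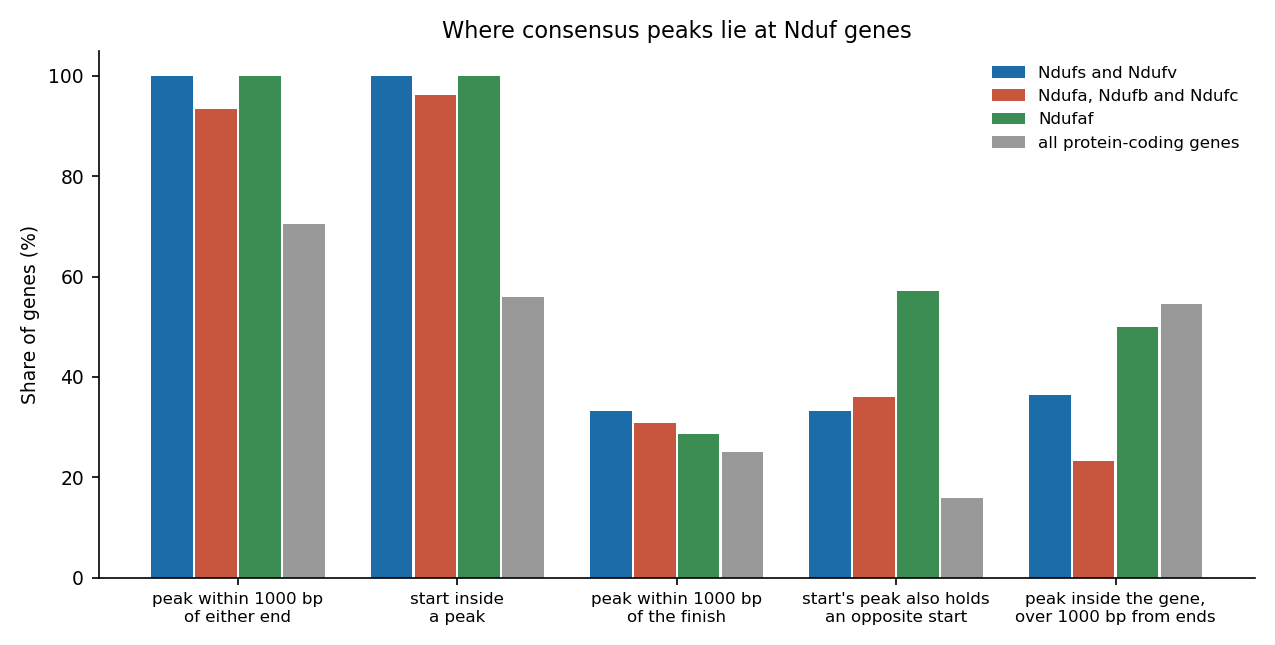
Share of genes in per cent with each kind of site, for 11 Ndufs and Ndufv, 30 Ndufa, Ndufb and Ndufc and 8 Ndufaf genes and for 21774 protein-coding genes (grey). The share with a start inside a peak and the share with a peak near the finish are over genes with a known strand, and the share with an opposite start is over genes whose start lies inside a peak, so the Ndufaf bar of 57.1% there is 4 of 7 genes.

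The widest peaks at the finish had a median of 672 bp over these 13 Nduf genes, and those at the start 1144 bp over the 41 Nduf genes. Over all protein-coding genes the medians were 572 bp at the finish and 1139 bp at the start. Besides Ndufv2 (1887 bp), the widest were at Ndufa10 (1171 bp), Ndufaf8 (1107 bp) and Ndufa13 (932 bp, not the peak that holds its finish). Ndufaf8 is 1.49 kb long and its finish peak is the peak over its start. The other 9 genes, Ndufs3, Ndufs4, Ndufa8, Ndufa9, Ndufab1, Ndufb2, Ndufb4, Ndufb6 and Ndufaf3, had between 301 and 718 bp. At Ndufaf3, 1.85 kb long, the finish peak of 354 bp also lay within 1000 bp of its start and of ends of Dalrd3 and Impdh2. The finish peak of Ndufb6 lay within 1000 bp of ends of Smim27 and Topors.

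Peaks away from the ends were counted next. A peak inside the gene and over 1000 bp from both of its ends was found in 15 of 49 Nduf genes (30.6%), against 54.5% of all nuclear protein-coding genes. Nduf genes are shorter, with a median length of 7.69 kb, against 17.2 kb over all genes. Peaks over 1000 bp from any protein-coding gene's end, counted in the gene and its 10 kb flanks, had a median of 2 in Nduf genes, against 2 over all genes. Peaks inside the gene and over 1000 bp from both of its ends numbered 57. Of these, 20 lay in Ndufaf2, the longest member, and 37 in the other 14 genes. Ndufa10 had 6, Ndufa12 and Ndufaf5 had 5 each, and Ndufaf6 had 4.

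In the gene and the 10 kb on either side, Nduf genes had a median of 4 peaks, with a range of 1 to 23, against 5 over all protein-coding genes. Per 10 kb of that window the median was 1.40 in Nduf genes, against 1.02. By class it was 1.58 in Ndufs and Ndufv, 1.27 in Ndufa, Ndufb and Ndufc and 1.44 in Ndufaf. The most peaks were at Ndufaf2 (23), at Ndufa10 (12) and, in the core series, at Ndufs7 and Ndufv3 (7 each). Ndufa11 and Ndufa13, with 9 peaks each, were densest at 3.40 and 3.17 per 10 kb, and Ndufaf1 was sparsest at 0.365.

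Genes of like length could differ widely. Ndufaf2 (106 kb) had 23 peaks and Ndufs4 (100 kb) had 5, against a median of 11 and quartiles of 7 and 18 over 2137 protein-coding genes over 64000 and up to 128000 bp long. Inside the gene this came to 1.89 peaks per 10 kb in Ndufaf2 and 0.299 in Ndufs4. Against the median of its own length class, 27 of the 49 Nduf genes had more peaks, 16 had fewer and 6 had the same number.

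**Figure D5:**
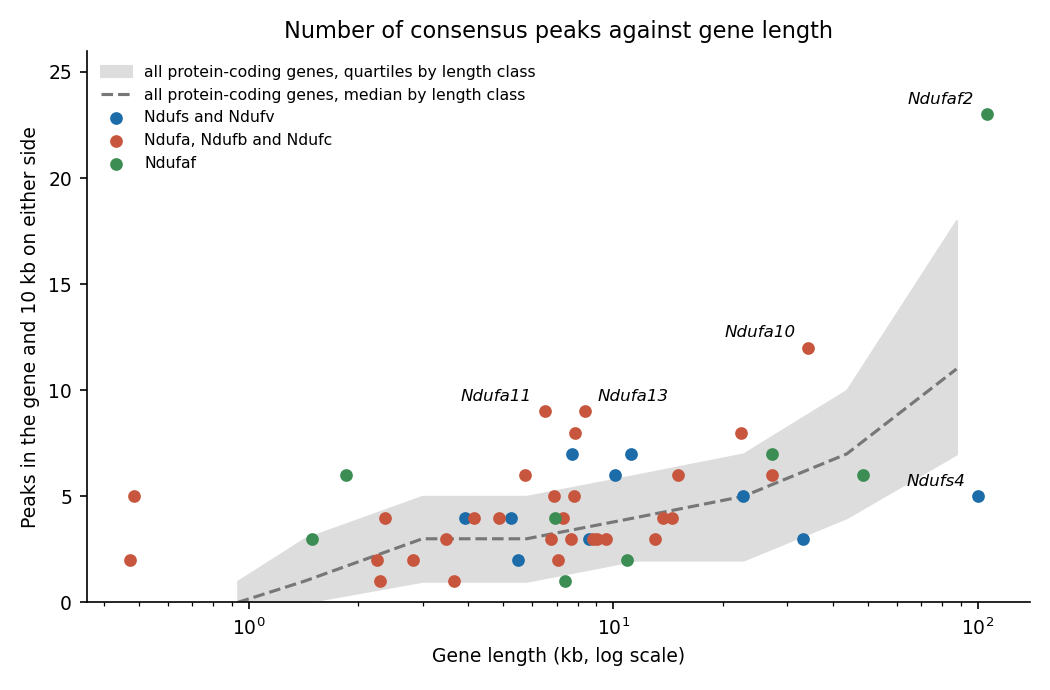
Number of peaks in 48 Nduf genes and 10 kb on either side against gene length in kb (log scale), with the median (dashed) and quartiles (band) of all protein-coding genes by length class. Ndufaf2 with 23 peaks stands above the upper quartile of its length class (18) and Ndufs4 with 5, at nearly the same length, below the lower quartile (7).

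Both X-linked members, Ndufa1 and Ndufb11, had a single peak, which covered the start and lay alone in the gene and its 10 kb flanks. Ndufaf1 on chromosome 2 was the only other member with 1. Protein-coding genes on X had a median of 1 peak in this window, against 5 on autosomes, and 49.2% of them had an end peak, against 72.2% on autosomes.

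Other genes of oxidative phosphorylation were counted in the same way, with no test of the differences. Of 13 complex I assembly factors with other symbols all had an end peak, with a median width of 1082 bp, among them Acad9 (1276 bp), Ecsit (1351 bp) and Timmdc1 (1080 bp). All 8 genes of complex II and its assembly, all 9 of complex III and all 17 of ATP synthase had one, with medians of 1175.5, 1275 and 1288 bp. Of 18 complex IV genes 15 had one, with a median of 872 bp, and those without were Cox7a2, Cox7b2 and Cox8c. In the gene and its 10 kb flanks these had 2, 7 and 1 peaks. Only outermost gene ends were searched for end peaks, so a start inside the gene would be missed. The complex IV list took all symbols starting with Cox4 to Cox8. Paralogues such as Cox4i1 and Cox4i2 were included and not set apart. A start peak that also held an opposite start was seen in 16 of 41 Nduf genes (39.0%), in 4 of 10 of the other assembly factors, 3 of 7 complex II genes, 1 of 5 complex III genes, 0 of 11 complex IV genes and 5 of 14 ATP synthase genes. It was also seen in 25 of 61 genes of mitochondrial ribosomal proteins (41.0%), a list added after values were seen.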

How the data were processed

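Per the submitters' processing notes the authors used MACS2, deepTools and MultiQC with the build mm10, without versions. The deposited BED file is 1 list of consensus intervals whose names carry MSPC, a program that combines peak calls of replicates. The aligner, read shifting, the handling of duplicate and mitochondrial reads, thresholds and the samples that entered have no record in the labels and were not given in the sources used. The score the authors deposited is 1000 for 98.5% of peaks and ranked nothing. The starts and ends of the deposited intervals, which carry no signal or coverage, were used, written from 1.

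Genes came from a RefSeq table (GRCm38.p6, 49997 genes). Left out were 17 genes without a chromosome and 348 on scaffolds. Strand came from RefSeq promoter windows, which matched 42 of 49 members, and bases of 1685 overlapping windows on opposite strands were checked, with 0 disagreements. Of 14 assembly factors with other symbols, Coa1 was not in the table. Members and lists were chosen with earlier results of these data known, so counts and medians stand beside those over all protein-coding genes, with no test. Named in full are the 3 widest of each class, those with no end peak, those with the most peaks and those sharing a peak. The marker lists, the mitochondrial ribosomal proteins and the values of other members were added after values were seen. Values of 1 member and of 1 marker list are not reported here, and counts over the family include that member. The overlap and motif searches were tested on simulated data. The tools were matplotlib 3.10.9, scipy 1.17.1, pandas 2.3.3, numpy 2.4.6 and Python 3.11.15. Alternatives were end windows of 500 and 2500 bp, flanks of 2 and 50 kb, a peak over the end, peaks no narrower than 500 bp, peaks near other genes' ends left out, peaks away from gene ends, starts only, sharing within 500 bp, classes by biochemistry, members without Ndufa4 and Ndufa4l2 and, added after the data were seen, joined peaks.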

Additional observations from a re-analysis of the deposited data

Results flagged for a closer look

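The mitochondrial genome, which holds the other complex I subunit genes and enters no comparison above, held 8 peaks. The list has no values for the control samples, so they cannot be set against this count. The count was marked by a fixed rule, only for lying above the 3 that a count of 0 allows. That limit is no background for intervals of a consensus list, so the mark does not show that 8 is many. The 8 peaks were 331 to 2820 bp wide and covered 75.9% of the bases of the 7 mt-Nd genes. The genes mt-Nd1 and mt-Nd5 lay wholly in peaks, mt-Nd2, mt-Nd6 and mt-Nd4 were covered to 92.9%, 86.9% and 46.1%, and mt-Nd3 and mt-Nd4l had no base in a peak. The labels do not state the treatment of mitochondrial reads or of nuclear copies of this sequence, and their part was not tested.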

How the results depend on the processing

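No paired analysis was possible because the consensus list has no columns for samples or groups. Of 100 recomputed values, 80 stayed within set limits (a count within 1.5 times, a median within its 95% binomial interval over genes). Few genes make that interval wide, so such a median can move far and still pass. The Ndufaf median of 5 peaks became 2.5 with 2 kb and 12.5 with 50 kb flanks, and both passed. So did 0.702 per 10 kb, against 1.58, for the core series with peaks of at least 500 bp. Leaving out peaks within 1000 bp of another protein-coding gene's end lowered the genes with an end peak to 25 of 49 Nduf genes (51.0%, against 57.5% of all protein-coding genes), 14 of 30 Ndufa, Ndufb and Ndufc and 3 of 8 Ndufaf genes. That setting also drops a gene's own start peak where a neighbour's end is close. With 500 bp and 2500 bp windows the count was 47, against 66.2% and 77.0% of all genes. Classes by biochemistry leave 7 core genes, all with an end peak. Medians of peaks per gene depend on the window by construction. With 2 kb flanks they were 2 for all Nduf genes, for the core and for the accessory series, against 3 over all genes, and with 50 kb flanks 13, 17 and 13, against 14. Counting peaks of at least 500 bp gave 2 for all and 2 for accessory, against 2 over all genes. Per 10 kb the values were 0.707 for all and 0.788 for accessory. Peaks away from gene ends gave 2 for all, 1 for core and 1.5 for accessory genes, against 2 over all genes. Per 10 kb the values were 0.418, 0.396 and 0.419. For these settings no value per 10 kb over all genes is given, so the densities have no background beside them. Joining peaks at most 50 bp apart widened the widest end peak of 7 members (14.9%, against 14.4% of all genes with an end peak), and took the median to 1154 bp in Nduf genes, against 1179 bp over all genes. Depth is unknown, so a missing peak is not shown to be closed chromatin.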
